A study of Mus musculus with 4 samples.

Results

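Pulmonary surfactant is the lipid and protein film that lowers surface tension in the alveoli, and 10 genes for its proteins and for the organelle that stores it were described across a scRNA-Seq series of mouse lung. The genes were chosen by symbol, without use of their measured values, and make up 10 of the 32285 genes in the count matrices: Sftpa1, Sftpb, Sftpc, Sftpd, Abca3, Lamp3, Napsa, Slc34a2, Lpcat1 and Lyz1. The left lungs of male C57BL/6 mice from a commercial breeder were profiled in 4 libraries, each made from the pooled and cryopreserved cells of 3 mice. Young mice were 2 to 3 months old and aged mice 22 months old, and both were kept on restricted food. The ventilated mice of each age received ketamine, medetomidine and buprenorphine, vascular lines and 3 hours of ventilation with pure oxygen at a high tidal volume and no positive end expiratory pressure, whereas the nonventilated mice were naïve and had none of these. Each group is therefore 1 library without a replicate, the effect of ventilation cannot be told apart from that of anesthesia, oxygen or the library itself, no test was made, and all intervals are exact 95% intervals that cover counting error only.

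Alveolar type II cells make surfactant and store it as lipid layers in lamellar bodies, which are related to lysosomes and release their content onto the alveolar surface. The small hydrophobic proteins SP-B and SP-C sit in the lipid film and are cut from larger precursors on the way to the lamellar body, whereas SP-A and SP-D are collectins, secreted lectins that bind microbes. Phosphatidylcholine is the main lipid of the film, and its supply depends on acyl remodelling and on transport into the lamellar body.

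The type II cells were chosen by clustering without the 10 genes, so that the values of these 10 genes did not select the cells. A single cluster of 76 cells, of 10160 kept cells, carried 18 of 20 type II markers that are not among the 10 genes, each in at least 20% of its cells. Etv5, a transcription factor of type II cells, had a unique molecular identifier (UMI) in 85.5% of these cells and in 6.19% of the other cells, and Sfta2 in 92.1% and 0.575%. The exceptions were Rasgrf1, with a UMI in 13.2% of the cells, and Dlk1, which had none. The type II-like cells numbered 17 in young nonventilated, 25 in young ventilated, 23 in aged nonventilated and 11 in aged ventilated mice, that is 0.671%, 0.840%, 0.927% and 0.507% of the kept cells. Their median depth was 17684 UMIs, and 7 of the 76 cells held fewer than 12 of the markers. The whole libraries held 3400 to 4497 barcodes and 40655452 to 45218176 UMIs, and 23 barcodes occurred in a pair of libraries, none of them among the type II-like cells.

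In 3 of the 4 libraries, most transcripts of the 10 genes were in barcodes that the cell filter removed. The filter kept barcodes whose mitochondrial share was at most 10%, whose total lay within the 93rd percentile of UMIs and in which 200 to 5000 genes were detected. Of the UMIs of the 10 genes, 69.3% in young nonventilated, 46.2% in young ventilated, 69.1% in aged nonventilated and 71.3% in aged ventilated mice lay in removed barcodes. The young ventilated library stood apart, with 48.7% of these UMIs in kept type II-like cells against 25.1% to 27.8% in the other 3. Barcodes over the mitochondrial limit alone held 40.4%, 28.9%, 35.7% and 21.1%, in the same order of libraries, and those over an upper limit on UMIs or genes alone held 28.1%, 17.1%, 23.7% and 34.6%. Kept cells of other types held 3.12% to 5.08%.

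**Figure D1:**
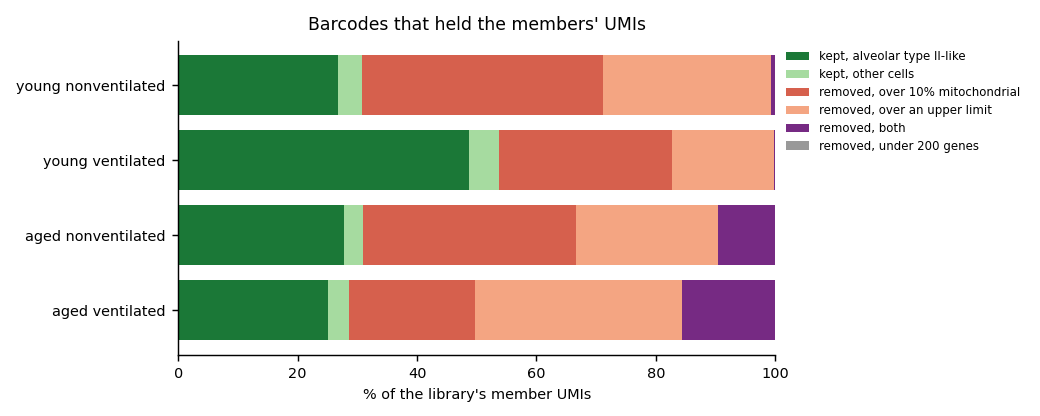
Share of each library's UMIs of the 10 genes (x axis, %) by the kind of barcode that held them, with 1 bar per library. Removed barcodes held 46.2% in the young ventilated library and 69.1% to 71.3% in the other 3.

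Over all deposited barcodes, which involves neither filter nor cluster, the 10 genes summed to 3551 CPM (UMIs of a gene per 1000000 UMIs) in young nonventilated, 2937 in young ventilated, 4959 in aged nonventilated and 4431 in aged ventilated mice. The sum was thus highest in the nonventilated library at each age, and both aged libraries were above both young ones. The ratio of ventilated to nonventilated was 0.827 (0.821 to 0.833) in young and 0.893 (0.888 to 0.899) in aged mice. For whole libraries, fewer type II cells and less RNA per cell cannot be told apart.

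In the type II-like cells themselves, the 10 genes took a large share of all transcripts. They made up 14.5% of the UMIs in young nonventilated, 14.6% in young ventilated, 16.4% in aged nonventilated and 18.03% in aged ventilated mice. Between single cells the share ranged from 0.500% to 25.1%, and the ranges of the 4 libraries overlapped. Sftpc alone gave 76.6% of these UMIs, Sftpa1 9.77% and Sftpb 5.35%. UMIs of all 10 genes summed were 1.01 times (0.993 to 1.02) as frequent in the ventilated as in the nonventilated young library and 1.10 times (1.09 to 1.11) in the aged ones, and 1.13 times (1.12 to 1.14) as frequent in the aged as in the young nonventilated and 1.24 times (1.22 to 1.25) in the aged as in the young ventilated library. The log2 ratio of the sum varied under the alternatives to the filter, clustering and scaling. After ventilation it ranged from -0.41 to 0.14 in young mice and from -0.73 to 0.27 in aged mice. For age it ranged from -0.03 to 0.43 without and from -0.33 to 0.75 with ventilation. Its direction was thus not settled in any of the 4 comparisons. The -0.03 came from a resolution of 0.18, where most cells taken were outside the main type II-like cells.

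All 10 genes passed the filter on low values in the 4 comparisons between libraries. A gene was called higher or lower when its CPM differed at least 2-fold with a counting interval that left out 1. Among all genes tested in type II-like cells, 22.3% were called in the young ventilated over the young nonventilated library, 16.7% in the aged ventilated over the aged nonventilated, 9.65% in the aged over the young nonventilated and 11.8% in the aged over the young ventilated. After ventilation, 4 of the 10 genes were lower in the young mice (Abca3, Slc34a2, Lpcat1 and Lyz1), where 11% of all genes tested were lower, and none was higher, beside 11.3% of all genes. In the aged mice, 0 of the 10 genes were called, beside 6.12% of all genes tested higher and 10.5% lower. With age, Lyz1 was lower in nonventilated mice, where 4.93% of all genes tested were lower and 4.72% higher, and higher in ventilated mice, where 4% were higher and 7.83% lower, and the other 9 genes were not called. The median log2 ratio of the 10 genes in these 4 comparisons was -0.20, 0.07, 0.02 and 0.31, beside 0.04, -0.12, 0.00 and -0.11 over all genes tested. The 4 comparisons share libraries and are not independent of each other.

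**Figure D2:**
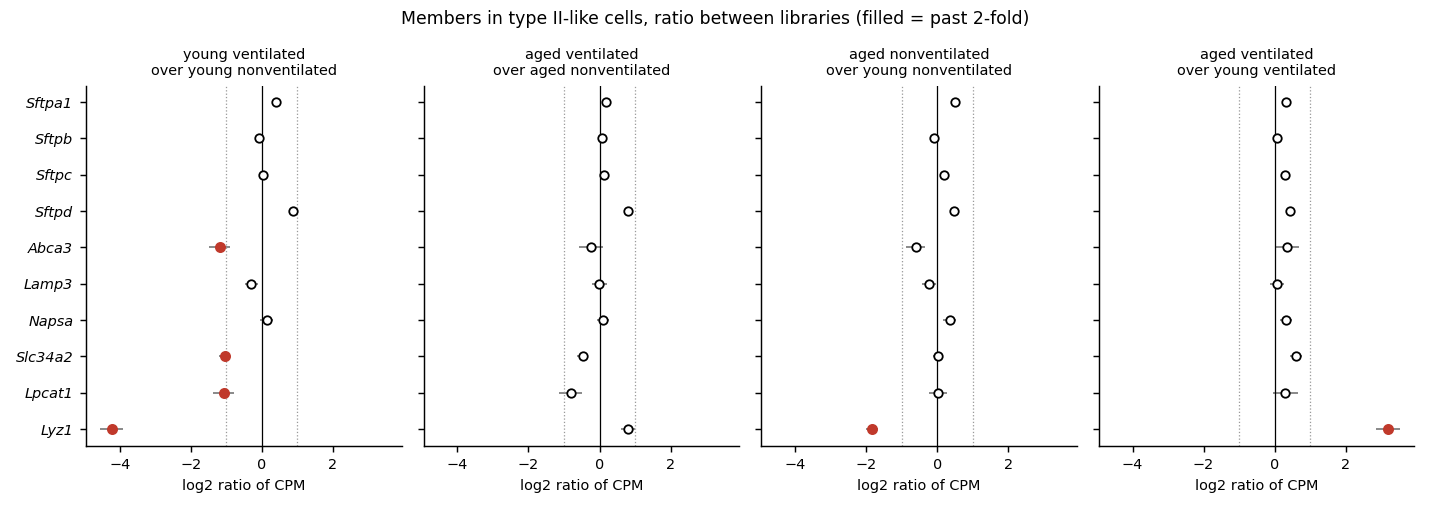
Log2 ratio of CPM between libraries (x axis) for each of the 10 genes in type II-like cells, with 1 panel per comparison; bars are 95% counting intervals, dotted lines mark 2-fold and filled points are past it. Abca3, Slc34a2, Lpcat1 and Lyz1 lie past 2-fold in the young ventilated over the young nonventilated library, and Lyz1 alone in both comparisons by age.

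Sftpc (chr14:70520949-70524081, minus strand; all gene positions are in GRCm38) encodes SP-C, whose precursor is made in type II cells. Its level was 110210 CPM in young nonventilated, 111690 in young ventilated, 126286 in aged nonventilated and 137487 in aged ventilated mice. Every type II-like cell held Sftpc, from 1935 to 197694 CPM per cell. The lowest cell of the aged ventilated library was at 104691 CPM, whereas the lowest cells of the other 3 were at 1935, 24230 and 2613 CPM in young nonventilated, young ventilated and aged nonventilated mice.

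Sftpb (chr6:72304610-72314371, plus strand) encodes SP-B, without which lamellar bodies do not form normally. It varied least of the 4 surfactant protein genes between libraries, at 8743 CPM in young nonventilated, 8218 in young ventilated, 8271 in aged nonventilated and 8616 in aged ventilated mice. The ratio of ventilated to nonventilated was 0.940 (0.892 to 0.991) in young and 1.04 (0.986 to 1.10) in aged mice.

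The collectin genes Sftpa1 (chr14:41131782-41136452, plus strand) and Sftpd (chr14:41172214-41185149, minus strand) lie near each other on chromosome 14. Sftpa1 was at 11447.5 CPM in young nonventilated, 15055 in young ventilated, 16302 in aged nonventilated and 18605 in aged ventilated mice. Sftpd was at 3016, 5492, 4195 and 7324 CPM in the same order. Both were lowest in the young nonventilated and highest in the aged ventilated library. The ratio of ventilated to nonventilated for Sftpd was 1.82 (1.68 to 1.97) in young and 1.75 (1.63 to 1.87) in aged mice, under the 2-fold threshold at both ages, and that for Sftpa1 was 1.32 (1.26 to 1.37) and 1.14 (1.10 to 1.19). The median cell held 3579 CPM of Sftpd in young nonventilated, 5119 in young ventilated, 4167 in aged nonventilated and 6743 in aged ventilated mice. The cells overlapped, since young nonventilated cells reached 4739 CPM and aged ventilated cells began at 3791 CPM. With the type II-like cells of the percentile taken over the barcodes left by the other limits, the young log2 ratio of Sftpd was 1.04, past 2-fold, and with type II cells taken as those with at least 4 of the markers, the aged one was -0.09. The log2 ratio of Sftpa1 also turned below 0 there in aged mice, at -0.68, and without upper limits on UMIs or genes in young mice, at -0.20.

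**Figure D3:**
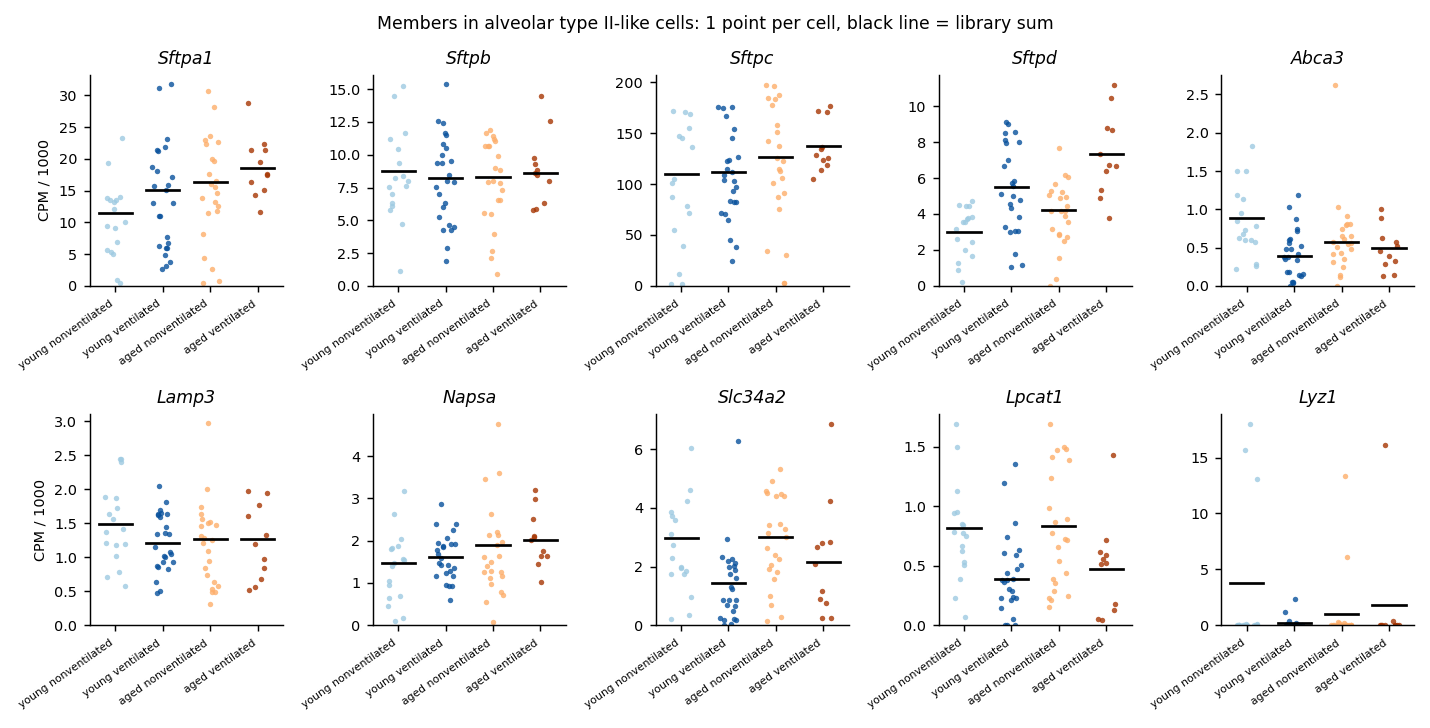
CPM divided by 1000 (y axis) of each gene in each of the 76 type II-like cells, by library, with the library sum as a black line. Cells of the 4 libraries overlap for all 10 genes, and Lyz1 lies in few cells, the highest at 18017 CPM.

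Abca3 (chr17:24351950-24410201, plus strand), the transporter that loads phospholipid into the lamellar body, was lower in the young ventilated library. It was at 882 CPM in young nonventilated, 386 in young ventilated, 580 in aged nonventilated and 491 in aged ventilated mice. The nonventilated over the ventilated level was 2.29-fold (1.87 to 2.80) in young and 1.18-fold (0.944 to 1.49) in aged mice. The median cell held 735 CPM in the young nonventilated and 384 in the young ventilated library, and the cells overlapped, from 223 to 1832 and from 0 to 1185 CPM. Gm25618 and D330041H03Rik overlap Abca3 on the opposite strand.

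Slc34a2 (chr5:53038081-53071664, plus strand), the sodium-phosphate cotransporter that takes up phosphate from the alveolar fluid, was also lower in the young ventilated library. Its level was 2986 CPM in young nonventilated, 1439 in young ventilated, 3017 in aged nonventilated and 2170 in aged ventilated mice. Both ventilated libraries were thus below both nonventilated ones, which lay close together. The nonventilated over the ventilated level was 2.08-fold (1.87 to 2.31) in young and 1.39-fold (1.25 to 1.54) in aged mice. The median cell held 2290 and 1222 CPM in the young nonventilated and young ventilated libraries. Gm17182 overlaps it on the opposite strand.

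Lpcat1 (chr13:73467197-73516422, plus strand) encodes an acyltransferase that remodels phosphatidylcholine toward the saturated form of surfactant. It was at 815 CPM in young nonventilated, 386 in young ventilated, 834 in aged nonventilated and 475 in aged ventilated mice, with both ventilated libraries below both nonventilated ones. The nonventilated over the ventilated level was 2.11-fold (1.72 to 2.60) in young and 1.76-fold (1.42 to 2.19) in aged mice, the latter not called. The median cell held 777 CPM in young nonventilated, 377 in young ventilated, 723 in aged nonventilated and 522 in aged ventilated mice.

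Abca3, Slc34a2 and Lpcat1 lay close to the 2-fold threshold in the young mice. Without the deepest cell of each library their log2 ratios were -0.99, -0.80 and -0.98, so that none of the 3 was called. All 3 were below 0 over the alternatives to the filter, clustering and scaling that gave type II-like cells. Abca3 ranged from -1.46 to -0.74, Slc34a2 from -1.50 to -0.44 and Lpcat1 from -1.69 to -0.82. The -1.46 of Abca3 came from a resolution of 0.18. Most cells taken at that resolution were outside the main type II-like cells, and 9 of the 20 type II markers were detected. In aged mice Abca3 was below 0 in 14 of 14 alternatives, from -0.98 to -0.09. Lpcat1, from -1.61 to 0.16, and Slc34a2, from -1.30 to 0.14, were below 0 in 13 of 14 each. The value of 0.16 came from cells thinned to 2000 UMIs. That of 0.14 came from the percentile over the barcodes left, with only 4 aged ventilated cells. The difference between the aged and the young log2 ratio was 0.95 (0.53 to 1.38) for Abca3, 0.58 (0.37 to 0.79) for Slc34a2 and 0.27 (-0.15 to 0.69) for Lpcat1, with counting intervals only.

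The length of the genes moved with these ratios. Among all genes tested in type II-like cells of young mice, the log2 ratio of ventilated over nonventilated had a median of 0.31 for the 579 genes with a gene body under 10 kb, 0.31 for 621 genes from 10 to 30 kb, -0.08 for 1014 genes from 30 to 100 kb and -0.31 for 736 genes over 100 kb. In the aged mice these medians were 0.02, 0.06, -0.17 and -0.40. Abca3 spans 58.3 kb, Lpcat1 49.2 kb and Slc34a2 33.6 kb, and 13.02% of the young mice's tested genes from 30 to 100 kb were called lower, against 3.28% of those under 10 kb. Sftpc spans 3.13 kb, Sftpa1 4.67 kb, Sftpb 9.76 kb and Sftpd 12.9 kb. Lamp3, at 53.0 kb, and Napsa, at 14.5 kb, were not called. Lyz1 is short, at 5.07 kb, yet it was called lower in young mice, with a log2 ratio of -4.22. The part of gene length in these results was not tested.

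Lamp3 (chr16:19653378-19706375, minus strand) encodes a membrane glycoprotein of the lamellar body. Its level was 1493 CPM in young nonventilated, 1212 in young ventilated, 1270 in aged nonventilated and 1265 in aged ventilated mice. The ratio of ventilated to nonventilated was 0.812 (0.712 to 0.926) in young mice and 0.996 (0.862 to 1.15) in aged mice.

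Napsa (chr7:44572380-44586862, plus strand) encodes napsin A, an aspartic protease that cuts the SP-B precursor. It was at 1478 CPM in young nonventilated, 1620 in young ventilated, 1889 in aged nonventilated and 2007 in aged ventilated mice. The ratio of ventilated to nonventilated was 1.10 (0.968 to 1.24) in young and 1.06 (0.946 to 1.19) in aged mice. Gm15396 overlaps it on the opposite strand.

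Lyz1 (chr10:117287797-117292868, minus strand), a lysozyme gene that is a close copy of Lyz2, came from few cells. It was at 3760 CPM in young nonventilated, 202 in young ventilated, 1047 in aged nonventilated and 1831 in aged ventilated mice. A UMI was found in 5 of 17, 6 of 25, 9 of 23 and 3 of 11 cells in the same order. Of the Lyz1 UMIs in type II-like cells, 1 cell held 97.8% in the aged ventilated library, 85.2% in the aged nonventilated, 63.6% in the young ventilated and 40.2% in the young nonventilated. The nonventilated over the ventilated level was 18.6-fold (14.96 to 23.4) in young mice, and the aged over the young ventilated level was 9.07-fold (7.20 to 11.5). In the young nonventilated library 3 cells held 99.7% of the Lyz1 UMIs of its type II-like cells. The young log2 ratio of ventilated to nonventilated ranged from -4.53, at a resolution of 0.18, to -2.25 under the alternatives. Most cells taken at that resolution were outside the main type II-like cells. The aged levels in type II-like cells rest on 1 cell a library. With the percentile of UMIs taken over the barcodes left by the other limits, the log2 ratio of the aged over the young ventilated library turned from 3.18 to -3.22, and that of the aged ventilated over the aged nonventilated library from 0.81 to -3.92. That setting left only 4 aged ventilated type II-like cells. Lyz2, in contrast, had a UMI in all 76 cells, at 11955, 15333, 16721 and 21106 CPM, and the counting could assign shared reads to neither gene or to one of them.

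The mixture of the type II-like cells was described with the club cell gene Scgb1a1, which was at 1471 CPM in young nonventilated, 2690 in young ventilated, 1094 in aged nonventilated and 8816 in aged ventilated mice. A single cell held 43.8%, 94.1%, 59.7% and 79.1% of these UMIs. Malat1, a nuclear RNA, was at 46049, 40604, 31021 and 36245 CPM in type II-like cells in the same order. Neat1, another nuclear RNA, was at 2130, 3872, 1773 and 1859 CPM, so the 2 moved in opposite directions after ventilation in young mice. The median mitochondrial share was 8.01%, 6.67%, 7.31% and 6.18%. The part of these values in the results was not tested.

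Across the 76 cells, Sftpa1 and Sftpc varied together (Spearman's rho 0.77), as did Sftpb and Sftpc (0.67), Sftpc and Napsa (0.65) and Slc34a2 and Lpcat1 (0.63). Sftpd had a rho of 0.03 with Lpcat1 and -0.06 with Abca3. The cells share 4 libraries and differ in depth and mixture, so the coefficients are a description.

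The 250 bases before the RefSeq start were found for 7 of the 10 genes (RefSeq, GRCm38.p6), and those of a pair of surfactant protein genes and of the 3 lipid and phosphate genes that were lower after ventilation in young mice are printed. Capitals mark matches, on either strand, to CTCAAG (a core of NKX2-1 sites) and to the forkhead motifs TGTTTAC and TGTTTGC. Positions are counted back from the start, at -1 for the base before it, and all 5 genes are on the plus strand. For Slc34a2 the RefSeq start lies well inside the gene span given above, so its bases do not precede that span. The length of 33.6 kb given for Slc34a2 is that of the span.
Sftpa1, chr14:41131538-41131787: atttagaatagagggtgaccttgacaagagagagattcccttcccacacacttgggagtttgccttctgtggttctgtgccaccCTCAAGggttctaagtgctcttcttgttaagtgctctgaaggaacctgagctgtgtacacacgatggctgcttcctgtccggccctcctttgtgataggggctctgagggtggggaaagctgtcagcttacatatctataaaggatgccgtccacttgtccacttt
Sftpb, chr6:72304360-72304609: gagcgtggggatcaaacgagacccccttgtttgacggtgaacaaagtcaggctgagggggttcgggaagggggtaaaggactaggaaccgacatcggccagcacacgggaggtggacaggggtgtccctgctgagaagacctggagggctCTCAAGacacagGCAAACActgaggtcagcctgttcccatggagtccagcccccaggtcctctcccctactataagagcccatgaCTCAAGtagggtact
Abca3, chr17:24351773-24352022: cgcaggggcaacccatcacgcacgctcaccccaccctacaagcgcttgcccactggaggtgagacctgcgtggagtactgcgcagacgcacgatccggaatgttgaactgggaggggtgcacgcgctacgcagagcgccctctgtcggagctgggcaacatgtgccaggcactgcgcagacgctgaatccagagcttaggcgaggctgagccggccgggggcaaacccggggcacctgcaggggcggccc
Slc34a2, chr5:53049103-53049352: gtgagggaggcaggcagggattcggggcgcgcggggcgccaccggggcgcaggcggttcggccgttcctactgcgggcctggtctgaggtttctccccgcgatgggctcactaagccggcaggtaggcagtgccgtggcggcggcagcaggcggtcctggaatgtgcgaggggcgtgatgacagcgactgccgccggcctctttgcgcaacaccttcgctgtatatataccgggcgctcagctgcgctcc
Lpcat1, chr13:73466981-73467230: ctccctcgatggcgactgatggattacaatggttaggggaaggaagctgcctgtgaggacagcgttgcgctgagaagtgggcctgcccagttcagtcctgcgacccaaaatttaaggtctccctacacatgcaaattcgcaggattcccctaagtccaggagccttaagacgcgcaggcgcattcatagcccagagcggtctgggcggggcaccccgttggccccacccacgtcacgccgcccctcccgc

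CTCAAG was found in Sftpa1 at -166 and in Sftpb at -100 and -15, and TGTTTGC in Sftpb on the opposite strand at -88, and no matches overlapped. Abca3, Slc34a2 and Lpcat1 held none of the motifs. Of all 32851 promoters of this length, 13.3% held CTCAAG, 4.30% TGTTTGC and 3.17% TGTTTAC. Lamp3 held TGTTTAC at -92 and Lyz1 no match. The GC content was 50% in Sftpa1, 58.4% in Sftpb, 67.6% in Abca3, 69.6% in Slc34a2 and 60.8% in Lpcat1, against a median of 52.4% over all promoters. Abca3, Slc34a2 and Lpcat1 had the highest GC content of the 7, whereas Lyz1, which was also lower after ventilation in young mice, had the lowest at 41.2%, and Lamp3 was at 42.4%.

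Other genes of the surfactant pathway were read from 4 lists in the same type II-like cells. Of 24 genes of surfactant lipid synthesis, 17 passed the filter in young mice, of which 3 were lower after ventilation and 1 higher. Gpam, which starts glycerolipid synthesis, was at 326 CPM in the young nonventilated and 78.0 in the young ventilated library (ratio 0.239, 0.156 to 0.359), and Scd2, a desaturase, at 396 and 129 CPM. Prdx6, which has a phospholipase activity on surfactant lipid, was higher, at 326 and 776 CPM. In aged mice, Gpam alone of the 19 genes tested was called, at 108 CPM without and 47.9 CPM with ventilation.

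Of 24 genes of processing, trafficking and secretion, 14 passed the filter in young mice, with 2 lower and 1 higher. Ctsh, the cathepsin that also cuts SP-B and SP-C precursors, was 3.79-fold higher (3.08 to 4.71), at 389 CPM in the nonventilated and 1476 in the ventilated library. Adgrf5, a receptor that restrains the surfactant pool, was at 515 and 218 CPM, and Rab27a, a GTPase of secretory vesicles, at 104 and 43.6 CPM. In aged mice 0 of 13 genes of this list were called. Ctsh was also one of the 20 markers that name the cluster.

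Of 13 regulators of type II cells, 9 passed the filter in young mice, with Etv5 lower and Cebpb higher after ventilation. Etv5, which like Ctsh was also one of the 20 markers that name the cluster, was at 419 CPM in the nonventilated and 147 in the ventilated library. Cebpb, an acute phase transcription factor, was at 74.1 and 149 CPM in young and at 86.6 and 251 CPM in aged mice, where it was the only one of 10 genes called. Of the 8 genes of surfactant uptake in macrophages, 1 passed the filter in each comparison and was not called.

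Between the ages, Chka, a choline kinase, was lower in the aged library without ventilation (478 CPM in young and 239 in aged mice) and with it (950.1 and 367 CPM). Gpam, at 326 and 108 CPM, Klf5, at 326 and 108 CPM, and Gata6, at 211 and 70.8 CPM, were also lower in aged nonventilated mice. In ventilated mice, the phosphatidate phosphatase gene Lpin2 was at 746 CPM in young and 335 in aged mice and Cept1, of the last step of phosphatidylcholine synthesis, was at 82.6 and 39.9 CPM. Without ventilation, 2 of 20 lipid synthesis genes tested were lower with age and 0 higher. With ventilation, 3 of 17 were lower and 1, not named here, was higher. Of the regulators, 2 of 10 were lower without ventilation and 0 of 10 were called with it. Among all genes tested, 4.93% were lower and 4.72% higher without ventilation, and 7.83% lower and 4% higher with it. In these comparisons by age the median log2 ratio of the lipid synthesis list was -0.20 without and 0.17 with ventilation.

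Outside the type II-like cells, the 10 genes were described in 2 sets, which Sftpb, Lamp3 and Lyz1 did not separate cleanly. Sftpa1, Sftpb, Sftpc, Sftpd, Lamp3 and Slc34a2 occurred in nearly every class of cells at a low level. Over the 19 other classes, the interval of the count over that expected from Sftpc, the count that type II-like RNA with the same Sftpc would give, held 1 in 16 classes for Sftpa1 and Slc34a2, in 15 for Sftpd and in 14 for Lamp3, but in 7 for Sftpb, which was above it in the other 12. The median ratio over the classes was 1.05 for Sftpa1 and Sftpd, 1.49 for Slc34a2, 1.64 for Sftpb and 2.06 for Lamp3. Few UMIs of Lamp3 and Slc34a2 were expected, 7.93 and 14.5 in general capillary endothelial-like cells against 51.2 of Sftpb. Their intervals were therefore wide and held 1 more readily. Sftpb was at 3.82 times (1.91 to 6.83) the expected count in lymphatic endothelial-like cells, and Lamp3 at 7.33 times (3.66 to 13.1) in B or plasma-like cells. In the 2105 general capillary endothelial-like cells, Sftpc was at 40.4 CPM, with a UMI in 25.8% of cells (median depth 7538 UMIs), and Sftpa1 was at 1.22 times (1.01 to 1.47) and Slc34a2 at 1.52 times (0.951 to 2.30) the expected count. In the 357 alveolar macrophage-like cells, Sftpc was at 28.97 CPM with a UMI in 36.1% of cells (median depth 18379 UMIs). The source of these UMIs was not tested, and the shares are not read as expression. After thinning to 1000 UMIs, which left out 10 of the endothelial-like cells and none of the macrophage-like ones, the share with Sftpc was 4.34% and 2.80%.

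Sftpc in all kept cells other than type II-like ones was at 42.6 CPM in young nonventilated, 88.6 in young ventilated, 55.5 in aged nonventilated and 61.1 in aged ventilated mice. The type II-like level was 2588, 1260, 2273 and 2251 times as high. An unnamed cluster of 316 shallow cells held 25.7%, 59.9%, 5.35% and 25.8% of these UMIs in the same order. Without it Sftpc was at 31.8, 35.98, 53.1 and 45.7 CPM, and the type II-like level was 3467, 3104, 2377 and 3006 times as high, so the high value of the young ventilated library rests on that cluster.

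Napsa, Abca3 and Lpcat1, in contrast, were above the count expected from Sftpc in 14, 18 and 18 of the 19 other classes. Lyz1 was above it in 4 classes only, and its interval held 1 in 15. Napsa was at 502 CPM in B or plasma-like, 486 in nonclassical monocyte-like, 360 in classical monocyte-like and 269 in interstitial macrophage or dendritic-like cells, but at 1.72 CPM in general capillary endothelial-like cells. A Napsa UMI was found in 87.9% of nonclassical monocyte-like cells. Abca3 was at 79.7 CPM and Lpcat1 at 76.7 CPM in the 117 alveolar type I-like cells, 503 and 439 times the count expected from their Sftpc. Lyz1 reached 95.2 CPM in interstitial macrophage or dendritic-like and 23.9 CPM in classical monocyte-like cells. Sftpd, a gene of the other set, was at 18.6 CPM in alveolar type I-like cells, 15.6 times (10.6 to 22.1) the expected count, from 31 UMIs.

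**Figure D4:**
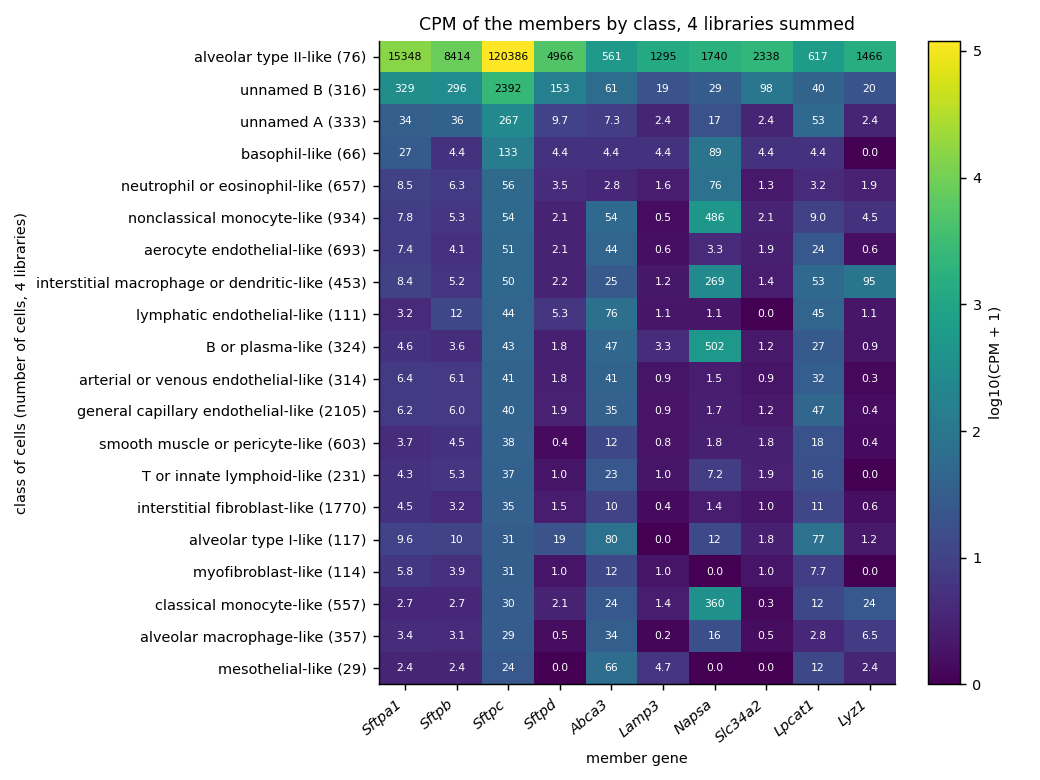
CPM of the 10 genes (columns) in each class of cells (rows, with the number of cells), all 4 libraries summed; the color is log10(CPM + 1). Type II-like cells are highest for every gene, and Napsa reaches 269 to 502 CPM in monocyte-like, B or plasma-like and interstitial macrophage or dendritic-like cells.

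The cluster of 316 shallow cells (median 1233 UMIs) was left unnamed, as ciliated and airway genes led it. It held 2392 CPM of Sftpc, with 290.1 CPM in the aged nonventilated and 4333 in the young ventilated library, and its other 9 genes stood at 0.726 to 6.29 times the count expected from Sftpc.

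Abca3 and Lpcat1 were also less frequent after ventilation in other classes of cells. Over all kept cells that were not type II-like, Abca3 was at 40.5 CPM in young nonventilated, 16.9 in young ventilated, 40.1 in aged nonventilated and 20.3 in aged ventilated mice, and Lpcat1 at 32.6, 16.2, 32.2 and 16.8. Among classes with at least 20 cells in each library and 10 UMIs in one of them, the Abca3 ratio of ventilated to nonventilated was below 1, with its interval, in 8 of 13 classes in young and 8 of 13 in aged mice, and above 1 in none. For Lpcat1 it was below 1 in 6 of 12 classes in young and 7 of 11 in aged mice, and above 1 in 0 and in 1 class, the aged lymphatic endothelial-like cells. In nonclassical monocyte-like cells, which form a single cluster, Abca3 was at 94.98 CPM without and 29.6 CPM with ventilation in young mice, and at 68.4 and 27.7 CPM in aged mice. In general capillary endothelial-like cells, Lpcat1 was at 71.9 CPM without and 27.2 CPM with ventilation in young mice, and at 60.4 and 26.4 CPM in aged mice. Here different clusters held the cells, with 579 of the young nonventilated cells in one cluster and 634 of the young ventilated cells in another, and the same holds for interstitial fibroblast-like and classical monocyte-like cells.

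**Figure D5:**
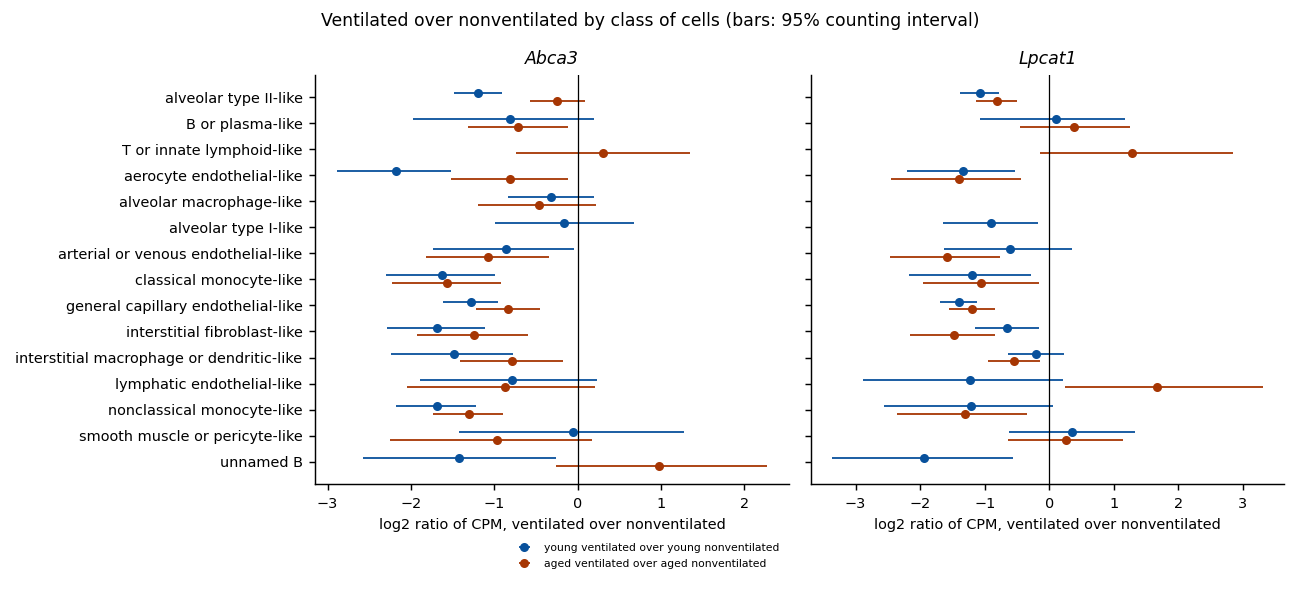
Log2 ratio of CPM of Abca3 (left) and Lpcat1 (right), ventilated over nonventilated (x axis), by class of cells in young (blue) and aged (brown) mice; bars are 95% counting intervals. Most classes lie below 0 at both ages, with Lpcat1 in aged lymphatic endothelial-like cells above it.

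Napsa had no common direction in other cells, with the ratio and its interval below 1 in 2 and above 1 in 2 of 9 classes in young mice, and in 1 and 1 of 7 in aged mice. In nonclassical monocyte-like cells it was at 537 CPM in the young nonventilated and 462 in the young ventilated library, and at 502 and 451 CPM in aged mice. In interstitial macrophage or dendritic-like cells the ratio of ventilated to nonventilated was 1.15 (1.01 to 1.30) in young and 1.49 (1.31 to 1.68) in aged mice.

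Among the genes whose pattern over the 80 sums of 20 classes in 4 libraries was most like that of the 10 genes summed were Tmprss4, S100g, Gm39094 and Tinag (Pearson's r of log2(CPM + 1) from 0.86 to 0.88, among 8592 genes). S100g, a calcium-binding protein, was at 1050 CPM in type II-like cells and at most 30.0 CPM in another class. Among the 10 genes, r with the sum was 0.90 for Sftpc, which the sum contains, 0.87 for Sftpa1, 0.68 for Napsa, 0.62 for Lpcat1 and 0.52 for Abca3. The sums share libraries and depth.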

How the data were processed

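The authors counted UMIs with Cell Ranger 7.0.0 on mm10, per the labels, and deposited whole-number counts per gene and barcode for each of 4 libraries, not normalized. This version counts intronic reads by default, so that long genes can collect reads from unspliced RNA. The 10 genes, the lists, the markers and the tests were chosen with earlier results of these data known.

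Cells were kept when their mitochondrial share was at most 10%, their total at most 28597 UMIs (the 93rd percentile of all barcodes) and their number of genes 200 to 5000. They were clustered in Seurat 5.3.0 (R 4.3.3) with 2000 variable genes without the 10 genes, 37 principal components and a resolution of 0.5. Clusters were named from marker lists, and 28 of 30 received a name. The cluster names were given after the clusters were seen. No doublet caller was run. An alternative left out some cells for marker UMIs of another type. It kept all 25 young ventilated and all 11 aged ventilated type II-like cells. The club cell gene Scgb1a1 had 1103 UMIs in 1 of these young cells and 1749 in 1 of these aged cells. This alternative therefore did not remove the cells richest in Scgb1a1.

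UMIs were summed per library and class, and scaled to 1000000 UMIs (CPM). Ratios were compared with exact conditional binomial intervals and shares with Clopper-Pearson intervals (Python 3.11.15, scipy 1.17.1). With 1 library a group there was no test. A gene was called at a ratio of at least 2 either way with an interval that left out 1, a mean of at least 50 CPM and at least 20 UMIs in 1 library. The depth of 250685 to 435741 UMIs per library in type II-like cells sets the width of the intervals. The calls and intervals were checked on simulated counts in which a known set of genes was altered. These counts varied by counting error alone, so the check does not cover differences between cells or mice. All 10 genes were named. From the pathway lists, the 2 largest rises and 2 largest falls per list and comparison among the called genes were named, and 1 more, chosen after its values were seen, where a list had 3 falls. For likeness, the 5 genes with the highest correlation were taken. Some results under these rules are not reported here. The count expected from Sftpc is the Sftpc count of a class times the ratio of the gene to Sftpc in the type II-like cells of the same libraries. Gene positions came from GENCODE (GRCm38, the build of mm10), matched for 32158 of 32285 genes, and promoters from RefSeq. The alternatives varied the filter, clusters, scaling, weight of cells, depth, background RNA and doublets.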

Additional observations from a re-analysis of the deposited data

Results flagged for a closer look

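The change of Lyz1 after ventilation in type II-like cells had opposite directions at the 2 ages, with a log2 ratio of -4.22 in young and 0.81 in aged mice, a difference of 5.03 (aged minus young). This difference was not tested, as each group is 1 library. A single cell held 97.8% of the Lyz1 UMIs in the type II-like cells of the aged ventilated library. Over all deposited barcodes, the Lyz1 ratio of ventilated to nonventilated was 0.218 (0.197 to 0.242) in young and 1.27 (1.19 to 1.35) in aged mice. With the percentile of UMIs taken over the barcodes left by the other limits, the aged log2 ratio in type II-like cells was -3.92, and with at least 4 type II markers asked of each cell it was -0.085, so under these the aged ratio had the sign of the young one. The percentile setting left only 4 aged ventilated type II-like cells.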

How the results depend on the processing

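The ratio of the 10 genes summed and the count of genes past 2-fold depended on which barcodes were taken as type II cells; the causes were not tested. In the order young ventilated over nonventilated, aged ventilated over nonventilated, aged over young nonventilated and aged over young ventilated, the summed log2 ratio was 0.01, 0.14, 0.18 and 0.31. It was 0.12, 0.24, 0.35 and 0.46 with the percentile over the barcodes left. It was -0.20, -0.73, 0.20 and -0.33 for cells with at least 4 markers, and -0.41, 0.24, 0.10 and 0.75 without upper limits. At a resolution of 0.18 it was -0.27, 0.026, -0.029 and 0.27. Most cells taken at that resolution were not among the main type II-like cells, and fewer type II markers were detected. The summed log2 ratio was 0.14, 0.27, 0.24 and 0.37 with cells thinned to 2000 UMIs. It was 0.11, 0.23, 0.26 and 0.37 as a mean over cells, and 0.11, 0.20, 0.24 and 0.33 without the deepest cell. With a mitochondrial limit of 20% the first 3 were -0.034, -0.14 and 0.43. Scaled to other genes the last 3 were 0.17, 0.21 and 0.37. In the alternative that left out some cells for markers of another type, the first 2 were -0.054 and 0.060. In alternatives chosen after seeing the data, it was -0.10, 0.036, 0.15 and 0.29 without cells under 12 markers, and for all deposited barcodes with at least 12 markers 0.064, -0.17 and -0.055 in comparisons 1, 2 and 4.

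Of the 10 genes, 4 were called in young mice after ventilation. The count was 2 with the percentile over the barcodes left, and 1 with a mitochondrial limit of 20%, for thinned cells, for a mean over cells, without the deepest cell and for all deposited barcodes with at least 12 markers. In aged mice the count of 0 became 2 for cells with at least 4 markers. It became 1 with the percentile over the barcodes left, thinned cells, a limit of 20% or no upper limits. It also became 1 in the alternative that left out some cells for markers of another type. For age with ventilation the count of 1 became 2 with the percentile over the barcodes left and without upper limits. With that percentile, which left only 4 aged ventilated cells, the Lyz1 log2 ratio for age with ventilation reversed to -3.22. A mitochondrial limit of 5% left no cluster with enough type II markers and gave no value. No paired analysis was possible because each group is 1 library.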
